A study of Homo sapiens with 18 samples.

Results

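The genes examined were 35 genes of glucose breakdown, namely the glycolytic enzymes, the glucose and lactate transporters, and the enzymes that make up and switch the pyruvate dehydrogenase (PDH) complex. They were listed by gene symbol as members of the pathway, with earlier results of these data already known, and all 35 were found among the 38055 genes of the whole transcriptome table. The cells were wild type HCT116, an epithelial line from a human colorectal carcinoma, so the measurements describe a single line. They were grown for 3 days to 50% confluency or for 5 days to 250% confluency, the latter being a dense culture grown past a full monolayer. Each day had 3 biological replicates by the labels, and no treatment or allele separated the days. How the replicate cultures were set up is not stated in the labels, so p-values measure the spread between these libraries, and day in culture and density cannot be told apart. Whole transcriptome libraries of day 7 and the small RNA libraries were not analysed here.

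Glycolysis splits glucose into pyruvate in the cytosol and yields a small amount of ATP without oxygen. Pyruvate then either becomes lactate, through lactate dehydrogenase, and leaves the cell by monocarboxylate transporters, or enters the mitochondrion, where the PDH complex turns it into acetyl-CoA. PDH kinases switch that complex off by phosphorylation and PDH phosphatases switch it on again. Most steps have several isozymes encoded by separate genes, with different kinetics and tissue distribution, so both the total level of a step and the isozyme that supplies it are of interest.

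All values are a normalised signal per gene, meaning reads divided by a size factor for each library, and the libraries held 27470978 to 56689369 reads. Signals are relative to the RNA of the sample, and in bulk RNA fewer expressing cells and less RNA per cell cannot be told apart. The 10 most abundant genes took 11.8% to 12.9% of the reads on day 3 and 8.73% to 9.03% on day 5. EPCAM, a surface glycoprotein that defines epithelial cells, was abundant, with a mean of 7227 on day 3 and 7236 on day 5. The other 4 of 5 epithelial markers rose in the fit given below, where 29.3% of all genes tested rose. Their summed level with EPCAM was 36900 to 54939 on day 3 and 100049 to 101107 on day 5. Of 4 intestinal markers only CDX2 was tested, with means of 226 and 306, and CDX1, VIL1 and CDH17 had means of at most 3.65. Of 11 markers of fibroblasts, leukocytes and endothelium 9 were in the table. Their summed level was 536 to 618 on day 3 and 1156 to 1227 on day 5, most of it COL1A1. Of the 3 tested, COL1A1 and the endothelial VWF (14.1 to 32.1) rose and COL1A2 was not called, again beside 29.3% of all genes that rose. The leukocyte markers PTPRC and CD3E and the fibroblast marker DCN had means of at most 1.44. The rise of these markers occurred beside the changes described here and its part in them was not tested.

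Most of the 35 genes were higher in the dense culture. In a limma fit over 20129 genes, 26 of the 35 (74.3%) rose at an adjusted p under 0.05, against 29.3% of all genes tested. A further 4 (11.4%) fell, against 27.6% of all genes, and these were LDHB, SLC16A1, PDHB and PDP1. PFKFB1, PFKFB2, PDHA1, DLAT and PDP2 were not called. Called genes in either direction made up 56.9% of the transcriptome tested, so day 5 differed from day 3 well beyond this pathway. The median log2 fold change was 1.10 over the 35 genes and 0.01 over all genes. The 3 day 5 libraries were all above the 3 day 3 libraries for 30 of the 35 genes, against 33.4% of all genes. The reverse held for the 4 genes that fell, against 31.7% of all genes, and only PFKFB1 overlapped between the days. A log2 fold change of at least 3 was reached by 42 genes in all, and 6 of them were SLC2A1, SLC2A3, HK2, PFKFB4, ALDOC and ENO2.

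**Figure D1:**
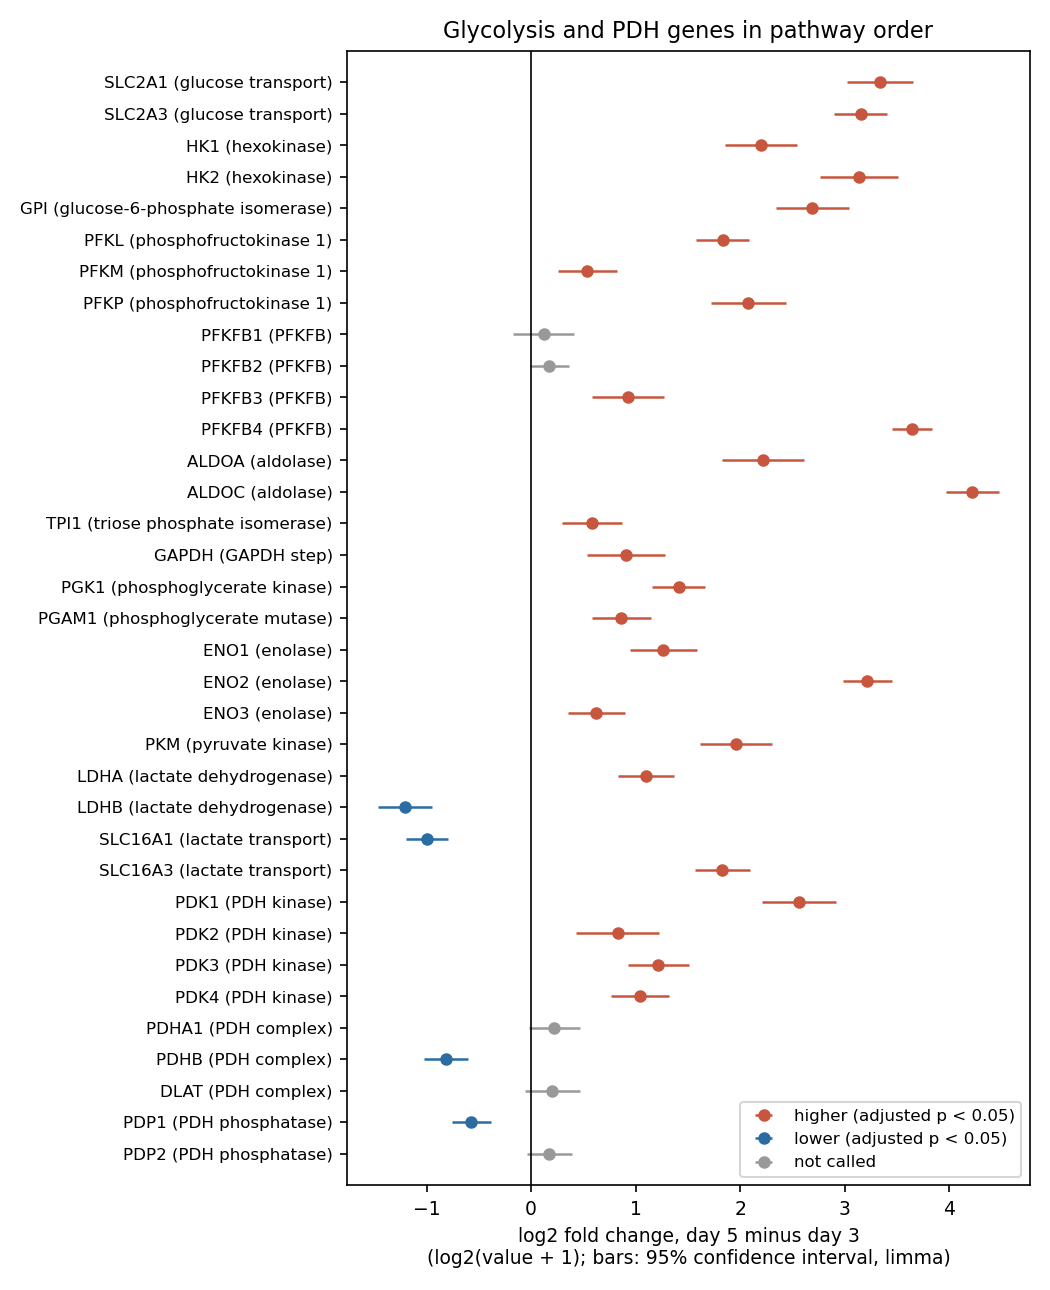
Log2 fold change of each of the 35 genes, day 5 minus day 3, with genes in pathway order on the vertical axis. Points are limma estimates from 3 libraries a day and bars are 95% confidence intervals. The 26 genes that rose lie to the right of 0, the 4 that fell lie to the left, and ALDOC is farthest to the right at 4.22.

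The same shift was visible in raw shares of the libraries. The 35 genes together took 1.14%, 1.19% and 1.27% of all reads in the 3 day 3 libraries. They took 2.42%, 2.53% and 2.54% in the 3 day 5 libraries, above every day 3 library. GAPDH alone took 0.253%, 0.262% and 0.322% of reads on day 3 and 0.533%, 0.563% and 0.543% on day 5. GAPDH is widely used as a constant reference gene, and here it did not stay constant between the days. Replicate 3 of day 3 was the highest of its day for 24 of the 35 genes and for 49.7% of all genes tested. It had the largest summed signal, 3.89e+07, against 3.40e+07 to 3.50e+07 in the other 5 libraries, and leaving it out changed the call of 1 of the 35 genes, PDHA1.

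Glucose entry was among the steps with the largest change. SLC2A1 (ENSG00000117394, GRCh38 chr1:42925353-42958893, minus strand) encodes GLUT1, the basal glucose transporter of most cells. Its normalised signal was 1989.5, 2494 and 2539 on day 3 and 22499, 22142 and 26022 on day 5. The days were far apart relative to their spread, with a log2 fold change of 3.34 (SE 0.13, limma adjusted p = 0.000104). SLC2A3 encodes GLUT3, a high affinity transporter best known from neurons. It had signals of 313, 273 and 312 on day 3 and 2501, 2566 and 2944 on day 5, a log2 fold change of 3.15 (SE 0.10, adjusted p = 9.04e-05). Both transporters rose. SLC2A1 supplied 89.7% ± 1.76 (SD, n = 3) of their combined signal per kb of transcript on day 3 and 90.9% ± 0.173 on day 5, and the ranges of the days overlapped (exact permutation p = 0.4).

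All 16 enzymes that catalyse the steps from hexokinase to pyruvate kinase rose. Their log2 fold changes ran from 0.54 for PFKM to 4.22 for ALDOC with a median of 1.89, and the highest adjusted p among them was 0.00827. The increase was uneven along the pathway. The largest ratios were found in the upper part, between glucose entry and aldolase. Summed over the isozymes per kb of transcript, day 5 was 9.95 times day 3 for glucose transport, 6.11 times for hexokinase, 6.38 times for glucose-6-phosphate isomerase, 3.10 times for phosphofructokinase and 4.98 times for aldolase. In the lower part, from triose phosphates to pyruvate, the ratio was 1.49 for triose phosphate isomerase, 1.85 for GAPDH, 2.66 for phosphoglycerate kinase, 1.81 for phosphoglycerate mutase and 2.48 for enolase. Pyruvate kinase, the last step, had a ratio of 3.84. The days did not overlap at any of these steps, and differences between the steps were not tested.

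**Figure D2:**
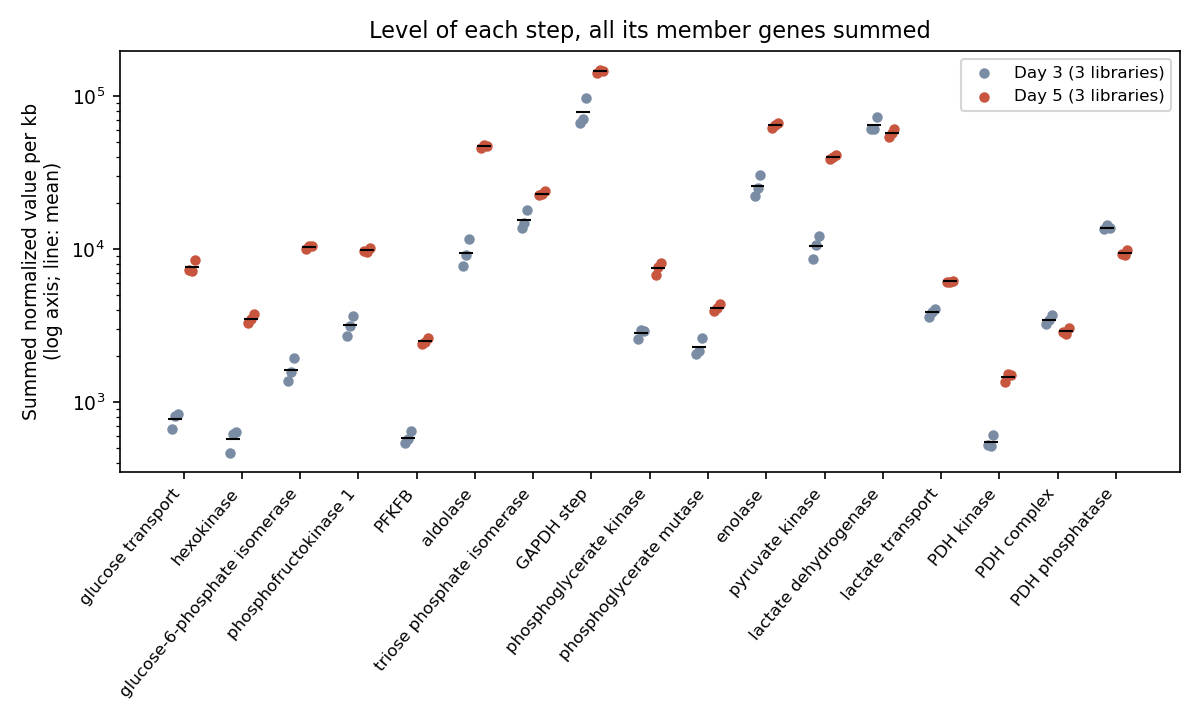
Summed signal per kb of canonical transcript for each of 17 steps (log axis), with 1 point for each of the 3 libraries of each day and a line at the mean. At 14 steps every day 5 point lies above every day 3 point, at the PDH complex and PDH phosphatase steps the order is reversed, and the points of lactate dehydrogenase overlap. With union length or no length the points of the PDH complex overlap. Among single genes tested, every day 5 library was above every day 3 library for 33.4%, and the reverse held for 31.7%.

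Hexokinase traps glucose in the cell as glucose 6-phosphate, and HK1 and HK2 are the mitochondrion-bound forms. HK2, the inducible form common in tumours and muscle, had signals of 957, 1334 and 1337 on day 3 and 9886, 10468 and 11203 on day 5. HK1, the form found in most tissues, had 1066, 1378 and 1439 on day 3 and 5427, 5838 and 6467 on day 5. Both rose, HK2 by a log2 fold change of 3.13 (SE 0.15, adjusted p = 0.00015) and HK1 by 2.20 (SE 0.14, adjusted p = 0.000207). Per kb of canonical transcript the HK2 to HK1 ratio was 0.575, 0.620 and 0.595 on day 3 and 1.17, 1.15 and 1.11 on day 5. HK1 therefore held 62.6% ± 0.883 (SD, n = 3) of the pair on day 3 and 46.7% ± 0.64 on day 5. With the union of all annotated exons as the length, HK1 held 48.0% on day 3 and 32.6% on day 5, so HK2 led on both days. The HK1 share was lower on day 5 with either length.

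GPI, which converts glucose 6-phosphate to fructose 6-phosphate, is encoded by a single gene. Its signals were 5617, 6449.9 and 8056 on day 3 and 41585, 43514 and 43332 on day 5, a log2 fold change of 2.69 (SE 0.14, adjusted p = 0.000157).

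Phosphofructokinase commits the sugar to glycolysis, and its liver, muscle and platelet forms moved by different amounts. PFKP, the platelet form, had signals of 3133, 3697 and 4546 on day 3 and 15476, 15389 and 16556 on day 5 (log2 fold change 2.08, SE 0.15, adjusted p = 0.000234). PFKL, the liver form, rose by 1.83 (SE 0.10, adjusted p = 0.000179) and PFKM, the muscle form, by 0.54 (SE 0.11, adjusted p = 0.00827). PFKP led on both days, with 45.5% of the family per kb on day 3 and 61.4% on day 5. PFKM went from 34.8% to 16.2% of the family although its own signal rose, and PFKL went from 19.7% to 22.4%.

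The PFKFB enzymes make and break down a fructose bisphosphate that strongly activates phosphofructokinase, and their 4 genes behaved differently from each other. PFKFB4 (ENSG00000114268, chr3:48517684-48562015, minus strand) had signals of 499.6, 493 and 503 on day 3 and 5883, 6194 and 6624 on day 5. The 3 day 3 libraries were almost equal and the log2 fold change was 3.64 (SE 0.08, adjusted p = 5.6e-05). PFKFB3, a form with high kinase activity, had 1136, 1225 and 1598 on day 3 and 2495, 2402 and 2566 on day 5 (0.93, SE 0.14, adjusted p = 0.0022). PFKFB2, the heart form, had 809.5 to 892 on day 3 and 930.3 to 959.8 on day 5, and its log2 fold change of 0.17 was not called (adjusted p = 0.102). PFKFB1, the liver and muscle form, had 55.3 to 66.1 and 60.0 to 72.5, and was not called either (0.12, adjusted p = 0.422). The leading gene changed from PFKFB3, with 50.1% of the family per kb on day 3 and 22.2% on day 5, to PFKFB4, with 24.5% and 71.2%. PFKFB2 went from 20.4% to 5.36% and PFKFB1 from 5.00% to 1.26%.

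**Figure D3:**
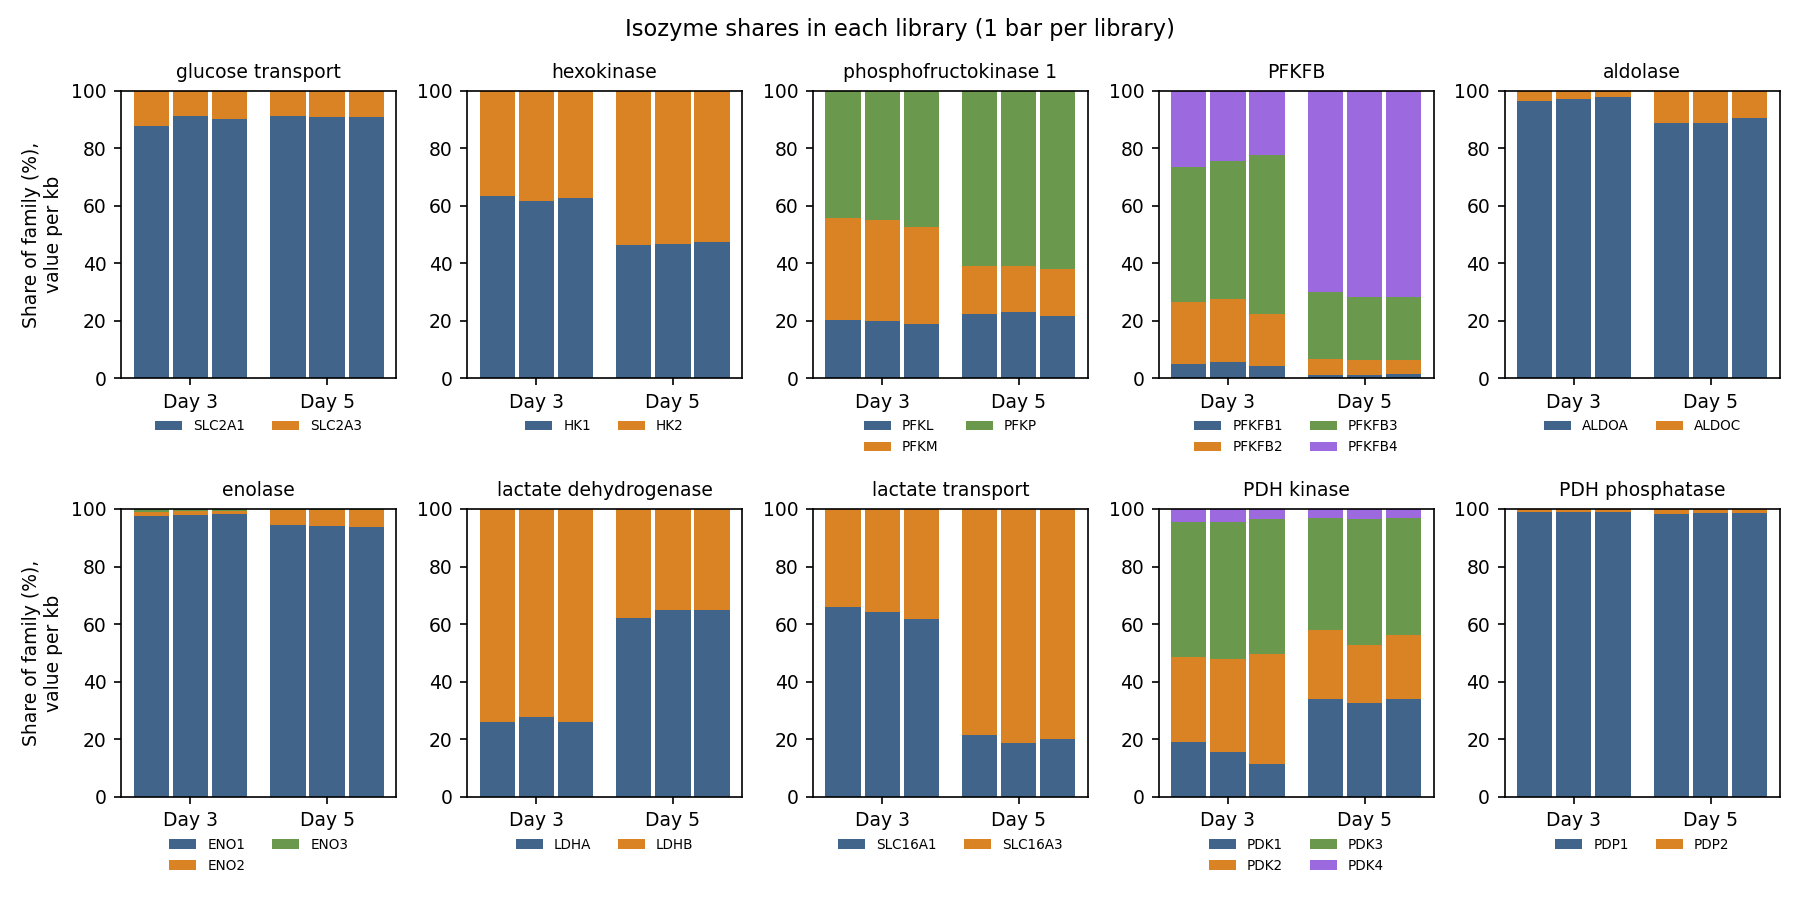
Share of each isozyme in 10 families, in percent of the family's signal per kb of canonical transcript, with 1 stacked bar for each of the 3 libraries of each day and 1 colour per gene. The leader changes from LDHB to LDHA, from SLC16A1 to SLC16A3, from PFKFB3 to PFKFB4 and from HK1 to HK2, and stays the same in the other 6 of 10 families.

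Aldolase splits fructose bisphosphate into triose phosphates. ALDOC (ENSG00000109107, chr17:28573115-28576948, minus strand), the brain form, had signals of 468, 435 and 411 on day 3 and 8344, 8868 and 7362 on day 5. Its log2 fold change of 4.22 (SE 0.10, adjusted p = 5.6e-05) was the largest of the 35 genes and ranked 13 among the rises of all 20129 genes. ALDOA, the form of muscle and most tissues, rose by 2.22 (SE 0.16, adjusted p = 0.000235), from 12172, 14616 and 18553 to 67014, 70000.2 and 70504. ALDOA still held 97.0% of the pair per kb on day 3 and 89.2% on day 5. The gene with the largest fold change was therefore a minor isozyme on both days, at 2.98% and 10.8%.

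The same arrangement was found for enolase. ENO2, the neuronal form, had signals of 851, 900.0 and 859 on day 3 and 7282, 8249.6 and 8825 on day 5 (log2 fold change 3.22, SE 0.10, adjusted p = 8.27e-05). ENO1, the general form, rose by 1.27 (SE 0.13, adjusted p = 0.000567) and ENO3, the muscle form, by 0.62 (SE 0.11, adjusted p = 0.00414). ENO1 held 97.8% of the family on day 3 and 94.1% on day 5, while ENO2 went from 1.48% to 5.47% and ENO3 from 0.714% to 0.430%.

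The remaining lower enzymes are single members here. TPI1, which interconverts the triose phosphates, had 18683 to 24298 on day 3 and 30419 to 32377 on day 5 (log2 fold change 0.58, SE 0.12, adjusted p = 0.00673). GAPDH, which makes the first high-energy intermediate and NADH, had signals of 86128, 91941 and 125200 on day 3 and 181634, 191562 and 189338 on day 5 (0.91, SE 0.15, adjusted p = 0.00329). PGK1, the first ATP-forming step, rose by 1.41 (SE 0.10, adjusted p = 0.000245) and PGAM1, which shifts the phosphate of phosphoglycerate, by 0.86 (SE 0.12, adjusted p = 0.00142). PKM, which makes pyruvate and the second ATP, had 19762, 24599.9 and 28246 on day 3 and 90194, 93112 and 95601 on day 5 (1.96, SE 0.14, adjusted p = 0.000235). The table counts genes, so the PKM1 and PKM2 splice forms were not separated. Per kb, GAPDH was the most abundant of the 35 genes on both days, with 78669 on day 3 and 145923 on day 5. ALDOA moved from rank 8 to rank 3 on that scale, and LDHB from rank 2 to rank 7.

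Lactate dehydrogenase changed its leading isozyme. LDHA (ENSG00000134333, chr11:18394560-18408425, plus strand) encodes the muscle type subunit, usually linked with making lactate from pyruvate. Its signals were 35638, 38020.3 and 42786 on day 3 and 75416, 84253 and 89706 on day 5. LDHB (ENSG00000111716, chr12:21635342-21757857, minus strand) encodes the heart type subunit, usually linked with the reverse reaction. Its signals were 59472, 57515 and 70918 on day 3 and 26593, 26392 and 28053 on day 5. The days did not overlap for either gene and the directions were opposite. LDHA rose by 1.10 on the log2 scale (SE 0.11, adjusted p = 0.000517) and LDHB fell by 1.21 (SE 0.10, adjusted p = 0.000347). Their sum per kb was 65390 ± 7043 on day 3 and 57824 ± 3749 on day 5 (SD, n = 3), with overlapping libraries. The direction of that sum turned with the length, the day 5 to day 3 ratio being 0.884 with canonical length, 0.833 with union length, where the days did not overlap, and 1.09 with no length, where they overlapped. LDHB held 73.5% ± 1.08 of the pair on day 3 and 35.9% ± 1.59 on day 5. The LDHA to LDHB ratio per kb was 0.348, 0.384 and 0.351 on day 3 and 1.65, 1.86 and 1.86 on day 5.

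The lactate transporters changed in the same manner. SLC16A1 encodes MCT1, which moves lactate and pyruvate in both directions, and SLC16A3 encodes MCT4, typical of cells that export lactate. SLC16A1 (ENSG00000155380, chr1:112911847-112957593, minus strand) had signals of 8858, 9415 and 9426 on day 3 and 4906, 4325 and 4664 on day 5. SLC16A3 (ENSG00000141526, chr17:82217934-82261129, plus strand) had 3183, 3613 and 4047 on day 3 and 12524, 12907 and 12927 on day 5. Thus SLC16A1 fell by 1.00 (SE 0.08, adjusted p = 0.000326) and SLC16A3 rose by 1.83 (SE 0.11, adjusted p = 0.00018). SLC16A3 held 36.0% ± 2.08 of the pair per kb on day 3 and 79.9% ± 1.25 on day 5. The transcripts differ in GC content, with 64.7% for SLC16A3 and 40.3% for SLC16A1. When values were corrected for transcript GC content and length, SLC16A3 rose by 1.13 and SLC16A1 fell by 0.86. Shares were not recomputed with that correction. The combined signal on day 5 was 1.60 times that of day 3 per kb of canonical transcript, 1.15 times with union length and 1.36 times with no length, and the days did not overlap with any of them. BSG, the glycoprotein that carries both transporters to the membrane, rose by 1.31 (SE 0.16, adjusted p = 0.000963), and SLC16A7, which encodes the related transporter MCT2, fell by 1.02 (SE 0.11, adjusted p = 0.000745).

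**Figure D4:**
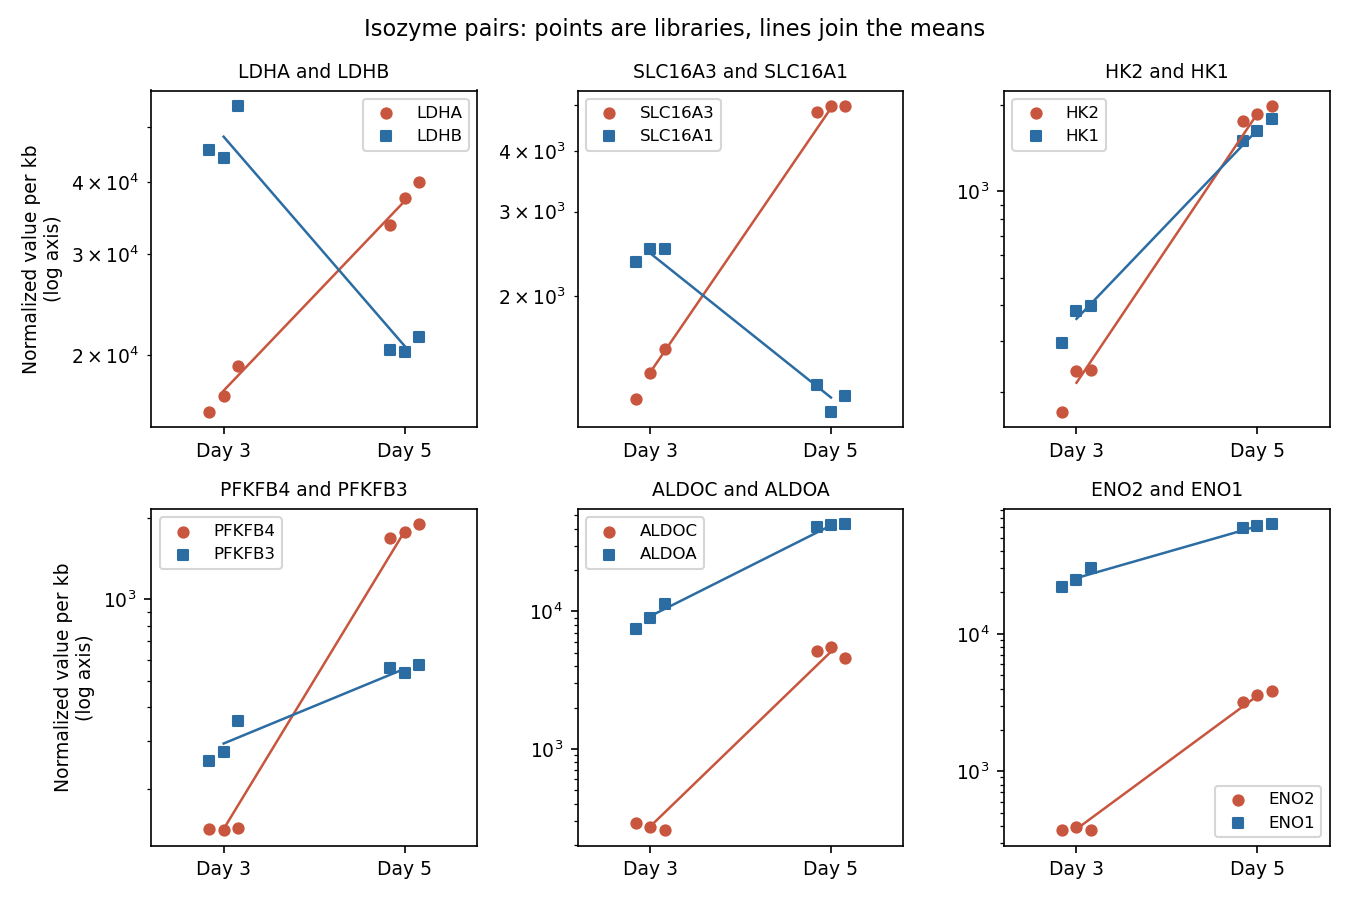
Normalised signal per kb of canonical transcript (log axis) of 6 isozyme pairs on day 3 and day 5, with 1 point per library and lines that join the means. LDHB and SLC16A1 go down from day 3 to day 5 while LDHA and SLC16A3 go up, and in the panels of HK2 and PFKFB4 the gene lower on day 3 is higher on day 5.

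Tests of the leading isozyme's share were made for 10 families with a 2-sided exact permutation test of 3 libraries against 3, which cannot give a p under 0.1. In 9 of the 10 families the days did not overlap and the exact permutation p was 0.1, or 0.111 after Benjamini-Hochberg adjustment over the 10. These p-values cannot pass a threshold of 0.05, whatever the data. A lack of overlap was also common among the signals of single genes. It held for 33.4% of all genes tested with day 5 higher and for 31.7% with day 5 lower. Changes of leader from LDHB to LDHA, SLC16A1 to SLC16A3 and PFKFB3 to PFKFB4 were found with the canonical transcript length, with the union of exons and with no length correction. The leaders of 8 of the 10 families were the same under all 3 lengths, the exceptions being hexokinase and the PDH kinases.

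To show the DNA at the genes with opposite or extreme changes, the part of the RefSeq promoter window that holds no annotated exon is given for 5 genes: LDHA and LDHB as the isozymes that exchanged rank, ALDOC as the largest rise, SLC16A3 as the transporter that rose, and PDHB as a gene that fell. The window runs from 250 bases before the RefSeq start to 50 bases after it on GRCh38.p14, and sequences are written 5′ to 3′ on the gene's strand. Capitals mark ACGTG and GCGTG on either strand, letters shared by binding motifs of hypoxia-inducible factors and, for CACGTG, of MYC. CACGTG reads the same on both strands and counts as 2 overlapping matches of ACGTG.
LDHA, chr11:18394313-18394559, plus strand: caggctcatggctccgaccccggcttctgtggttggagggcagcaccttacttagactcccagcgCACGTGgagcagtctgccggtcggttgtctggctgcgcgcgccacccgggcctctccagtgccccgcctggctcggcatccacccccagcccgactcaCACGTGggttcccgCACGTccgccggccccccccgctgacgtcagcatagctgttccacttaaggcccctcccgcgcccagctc
LDHB, chr12:21657972-21658092, minus strand: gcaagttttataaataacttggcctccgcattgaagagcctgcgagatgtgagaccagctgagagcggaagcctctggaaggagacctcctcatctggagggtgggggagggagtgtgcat
ALDOC, chr17:28576949-28577145, minus strand: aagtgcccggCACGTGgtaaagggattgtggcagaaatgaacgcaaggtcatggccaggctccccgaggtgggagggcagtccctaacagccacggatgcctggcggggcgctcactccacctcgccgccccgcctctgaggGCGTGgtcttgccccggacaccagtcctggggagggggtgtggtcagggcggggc
SLC16A3, chr17:82228185-82228396, plus strand: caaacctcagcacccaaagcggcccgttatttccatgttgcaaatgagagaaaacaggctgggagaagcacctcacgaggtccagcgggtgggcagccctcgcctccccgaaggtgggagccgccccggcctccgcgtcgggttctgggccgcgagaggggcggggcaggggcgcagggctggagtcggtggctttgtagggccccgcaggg
PDHB, chr3:58433858-58434082, minus strand: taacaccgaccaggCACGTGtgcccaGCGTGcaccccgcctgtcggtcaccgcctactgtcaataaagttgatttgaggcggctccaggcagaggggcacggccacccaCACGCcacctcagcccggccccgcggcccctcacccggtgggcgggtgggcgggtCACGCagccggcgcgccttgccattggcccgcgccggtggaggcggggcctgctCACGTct

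LDHA had 5 matches of ACGTG in the stretch shown, from 2 CACGTG and 1 CACGT, while the shorter LDHB stretch of 121 bases had none of either motif. In its whole window LDHB had 1 GCGTG, 27 bases after the start. ALDOC had 2 matches of ACGTG, both from 1 CACGTG, and 1 of GCGTG in the stretch shown, and 3 and 2 in its whole window. SLC16A3, which rose, had no match, and PDHB, which fell, had 3 of ACGTG and 3 of GCGTG. These 5 genes were chosen by their changes and the stretches differ in length, so a relation of matches to direction was not tested. Only the first listed RefSeq window of each gene symbol was searched. In the whole 300-base windows, 31 of the 35 genes had an entry (none for SLC2A3, PFKFB2, SLC16A1 and PDP1). ACGTG was present in 12 of the 31 (38.7%) and in 26.3% of 11170 promoters of genes tested. GCGTG was present in 16 (51.6%) and in 50.3%, and either motif in 21 (67.7%) and in 62.5%. Among the 25 with an entry that rose, 16 (64%) had either motif. A match is a description of the letters and says nothing of binding.

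The kinases that switch off PDH all rose. PDK1 (chr2:172555373-172608669, plus strand) had signals of 1392, 1139 and 972.5 on day 3 and 6420.2, 6923 and 7205 on day 5, with a log2 fold change of 2.57 (SE 0.14, adjusted p = 0.000178). PDK3 had 426 to 496 on day 3 and 919.6 to 1154 on day 5 (1.22, SE 0.12, adjusted p = 0.000491). PDK4, best known from fasting muscle, was the least abundant gene of the 35 per kb on day 3, with 78.0 to 84.7 before length correction, and 146 to 188 on day 5 (1.04, SE 0.11, adjusted p = 0.000698). PDK2 had 523 to 779.7 on day 3 and 1036 to 1128 on day 5 (0.83, SE 0.16, adjusted p = 0.00627). Its call was lost when values were corrected for transcript GC content and length, with 0.22 (limma adjusted p = 0.19). PDK1 went from 15.3% to 33.4% of the family per kb of canonical transcript, and the shares of the other 3 were lower on day 5. Which kinase led depended on the length, since the canonical transcript of PDK1 is 14072 bases and that of PDK3 1741 bases. PDK3 led on both days with canonical length, PDK2 on day 3 and PDK1 on day 5 with union length, and PDK1 on both days with none.

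Of the 3 subunits of the PDH complex examined, 1 fell and 2 were not called. PDHB, the beta subunit of its first enzyme, had signals of 2745, 2719 and 2984 on day 3 and 1598.5, 1506 and 1706 on day 5 (log2 fold change -0.81, SE 0.09, adjusted p = 0.000628). PDHA1, the alpha subunit with the phosphorylation sites, had 2439, 2699 and 2949 on day 3 and 3077, 3001 and 3335 on day 5, and its 0.22 was not called (SE 0.10, adjusted p = 0.106). DLAT, the acetyltransferase core, had 2647 to 3321 and 3365 to 3570.4 and was not called (0.20, SE 0.11, adjusted p = 0.155). PDHA1 passed the threshold under library totals (0.29, adjusted p = 0.017), under TMM (0.26, adjusted p = 0.043), without replicate 3 of day 3 (0.29, adjusted p = 0.0446), in edgeR (0.21, adjusted p = 0.0168) and in DESeq2 (0.22, adjusted p = 0.0365). DLAT did so under library totals, in edgeR and with the GC and length correction. The further subunits DLD and PDHX both fell, by 0.91 (SE 0.07, adjusted p = 0.000294) and 0.26 (SE 0.08, adjusted p = 0.0355). The summed signal per kb of canonical transcript of the 3 subunits examined on day 5 was 0.838 times that of day 3, with no overlap of the days. With union length the ratio was 0.929 and with no length 0.962, and the days overlapped in both, so a lower sum depended on the length used.

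Of the catalytic subunits of PDH phosphatase, PDP1 fell and PDP2 was not called, while the regulatory subunit PDPR rose by 0.83 (SE 0.07, adjusted p = 0.000384). PDP1 had signals of 56445, 59847 and 57061 on day 3 and 38218, 37711 and 40735 on day 5 (log2 fold change -0.57, SE 0.08, adjusted p = 0.0013). PDP2 had 855 to 923.5 and 930.9 to 1070.4 (0.17, SE 0.09, adjusted p = 0.142). PDP1 held 99.1% of the pair on day 3 and 98.5% on day 5. Its signal was high for a regulatory phosphatase, with 311120 reads in the 6 libraries against 5863 for PDP2. No same-strand annotated exon of another gene in the table overlaps it, and genes absent from the table were not searched. Where along the locus its reads lie cannot be seen in a gene table.

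Genes of neighbouring pathways were called in both directions. The counts that follow stand against 29.3% of all tested genes higher and 27.6% lower, and shares near these are no result about a list. Of 21 tested genes of a list of other isozymes and partners, 8 rose and 10 fell, with a median log2 fold change of -0.23. LDHD, a mitochondrial lactate dehydrogenase, rose by 1.68 and SLC2A12, a glucose transporter, by 1.57. TIGAR, a phosphatase that lowers the activator of phosphofructokinase, fell by 1.59. MPC1 and MPC2, which together form the mitochondrial pyruvate carrier, fell by 1.29 and 0.99. The tissue-restricted isozymes GAPDHS, PGK2, PGAM2, PKLR and LDHC and the transporters SLC2A2 and SLC2A10 did not reach the filter of a value of 10 in 3 libraries. Of 7 pentose phosphate genes 4 rose and 2 fell (median 0.59), with TKT at 0.85, RPE at -0.65 and RPIA at -0.44. Of 9 tested glycogen genes 6 rose and 1 fell (median 0.92), with the phosphatase subunit PPP1R3B at 2.32, glycogen synthase GYS1 at 2.12 and the primer GYG1 at -0.57. Of 3 tested gluconeogenic genes 2 rose, the pyruvate carboxylase PC by 1.42 and G6PC3 by 0.62. Of 16 genes of the tricarboxylic acid cycle 5 rose and 7 fell (median -0.14), with OGDH at 1.45, MDH2 at 0.95, SDHD at -1.11 and SDHB at -1.07.

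**Figure D5:**
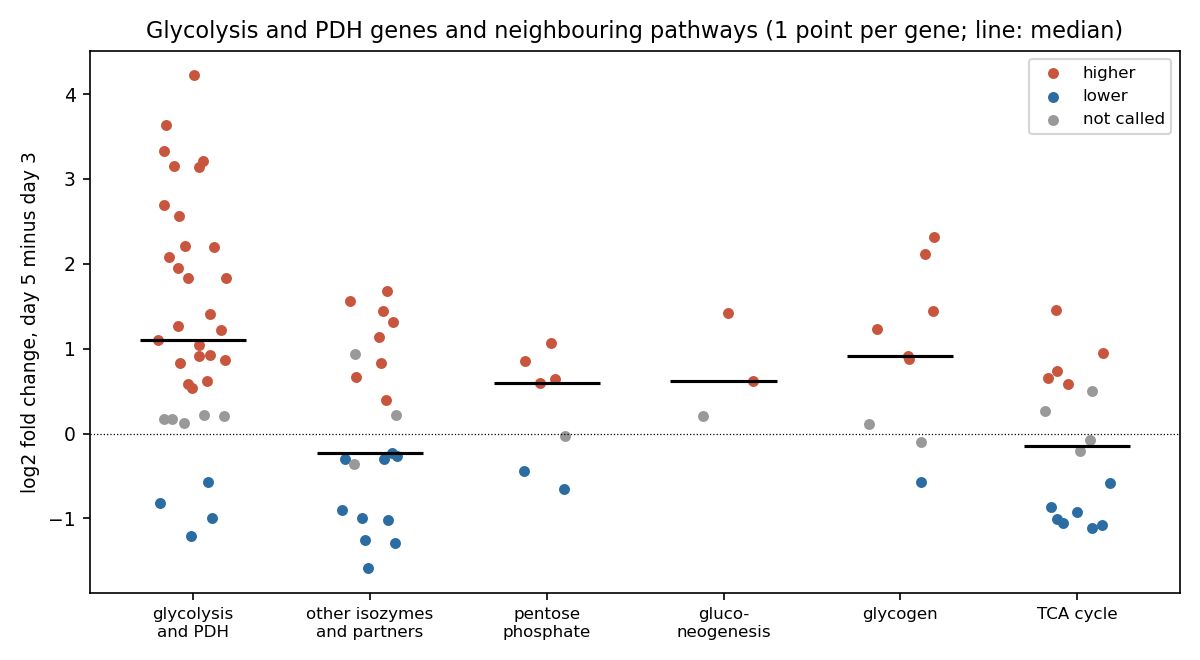
Log2 fold change, day 5 minus day 3, of the 35 genes and of the tested genes of 5 neighbouring pathways, with 1 point per gene, coloured by its call, and a line at the median. The median is 1.10 for the 35 genes, -0.23 for other isozymes and partners and -0.14 for the tricarboxylic acid cycle.

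Among 6 genes of transcription factors known to act on glycolytic genes, 5 rose and 1 fell, where 29.3% of all tested genes rose and 27.6% fell. EPAS1, which encodes HIF-2 alpha, rose by 2.00 (SE 0.14) and MYC by 1.03 (SE 0.13). HIF1A, which encodes HIF-1 alpha, fell by 0.63 at the RNA level (SE 0.09, adjusted p = 0.0021). HIF-1 alpha is known to be controlled mainly through protein stability, which RNA does not show.

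GC content and length moved with the measurement. Over all tested genes with a transcript sequence, the median log2 fold change was -0.36 in the quartile of lowest GC content and 0.52 in that of highest. The median GC content was 52.7% for the 35 genes and 48.2% for all genes. After a correction for GC content and length within each library, 26 of the 35 genes rose, DLAT having replaced PDK2, and 4 fell. Of all 19288 genes tested with that correction, 4190 rose and 5439 fell. LDHB fell by 0.83, LDHA rose by 1.36 and ALDOC by 4.05. PFKL (1.14), SLC16A3 (1.13), PFKFB3 (0.42) and PDHB (-0.51) changed in size by more than 1.5 times, and their calls held. Reads of named pseudogenes amounted to at most 2.54% of those of the parent gene, reached for PGAM1. The only same-strand exon overlap with an expressed neighbour above 1% of reads was 97 bases of PGK1 shared with ATP7A, whose reads were 3.73% of those of PGK1.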

How the data were processed

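RNA from whole HCT116 cells was depleted of ribosomal RNA, and strand-specific, paired-end libraries with molecular identifiers were sequenced. The submitters' processing notes name bcl2fastq, FastQC 0.11.8 and MultiQC 1.7, and the methods name CLC Genomics Workbench, hg38 genes and TMM. The deposited table holds the authors' normalised signal per gene and library for 38055 genes, together with columns of the authors' own comparison, which were not used. In every library the deposited signal came in steps of 1 read (100% of values, tolerance 0.01), and reads were recovered from it. Samples were grouped by the labels, with 3 libraries for day 3 and 3 for day 5. No pair of libraries within a day agreed within sampling noise (chi-square per gene 4.07 to 22.5), so all were counted separately.

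limma 3.58.1 (R 4.3.3) was fitted to log2(value + 1) of 20129 genes, those reaching a value of 10 in 3 or more of the 6 libraries, with Benjamini-Hochberg adjustment and a threshold of 0.05. Fold changes on this scale understate those of low genes. The fit was also run on simulated data with the same dispersion for all genes and few changed genes. These settings differ from the data, where day 3 libraries spread more than day 5 libraries, so no support is drawn from that run. Shares of isozymes used the signal per kb of the GENCODE release 44 canonical transcript (GRCh38) and exact permutation tests. edgeR 4.0.16 and DESeq2 1.42.0 were run on the recovered reads as alternatives, beside other scalings, pseudocount 0.1, no filter, a replicate block and leaving out each library. The correction for GC content and length was chosen after seeing the data. Intervals cover the spread between libraries.

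The 35 genes and the further lists were chosen with earlier results of these data known. All 35 were named, and for each further list the counts in each direction and up to 2 genes with the largest rise and fall, except that any gene of the list of other isozymes and partners could be named. PDHA2 and PCK1 were not analysed here, and some genes of the further lists are not reported here. Python 3.11.15, pandas 2.3.3, numpy 2.4.6, scipy 1.17.1 and matplotlib 3.10.9 were used.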

Additional observations from a re-analysis of the deposited data

How the results depend on the processing

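Each of the 35 genes was recomputed under 14 alternatives, giving 490 values. Direction and call were as in the report for 480. The exceptions were PDK2, which lost its call with the GC and length correction, PDHA1 in 5 alternatives and DLAT in 3, which gained one, and PDP2, whose log2 fold change turned to -0.025 with the GC and length correction (adjusted p = 0.822). The cause was not tested. The number of genes that rose among the 35 was 26 to 27 when 1 library was left out, and the number that fell was 4. All 80 alternative values of isozyme shares kept their direction. They came from other lengths or from leaving out 1 library, and none used the GC and length correction. Summed levels of the steps were also taken with other lengths, chosen after seeing the data. Every day 5 library was above every day 3 library at 14 of 17 steps with each length, and for 33.4% of single genes tested. The PDH complex and lactate dehydrogenase sums changed as given in the report.

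Over all genes, 11450 were called in the limma fit and 9780 to 11300 when 1 library was left out. Requiring a change of at least 2-fold left 3589 of 20129 genes, with 2059 higher and 1530 lower on day 5. Of the 35 genes 19 rose and 1 fell, since the other falls were smaller than 2-fold. Same-numbered libraries correlated at -0.011, 0.034 and 0.023 in their deviations from the day means over all tested genes. Such correlations cannot show whether the cultures were paired, and the labels do not state it. With the replicate block 10533 genes were called and all 35 genes kept their call. Genes of low signal such as PFKFB1 and PDK4 are limited by depth more than the rest.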
